A study of Mus musculus with 12 samples.

Results

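Of the 8 genes described here, Odc1, Amd1, Srm, Sms and Sat1 encode enzymes that make or acetylate polyamines. Oaz1 and Oaz2 encode antizymes, which limit that synthesis, and Azin1 encodes an antizyme inhibitor. All 8 were taken by symbol, after the mouse Ensembl identifiers of the deposited table were matched to gene names. They make up 8 of the 45669 rows of that table. The study measured total RNA and ribosome-protected fragments (RPF, the pieces of mRNA that survive nuclease digestion because a ribosome covers them) in CD4+ T cells that had been enriched from lymph nodes by magnetic removal of other cells. All mice were 12-week-old C57BL6 animals, with the genotype WT/WT (called WT) or Anaef/Anaef (called Anaef), where Anaef is an allele of Rasgrp1 with a point mutation. Rasgrp1 encodes an exchange factor that activates Ras below the T cell receptor, and in these animals the allele was carried by the whole mouse rather than by T cells alone. Total RNA came from 4 WT libraries (1 to 4) and 4 Anaef libraries (5 to 8) with no drug treatment, and RPF from 2 pools of each genotype (WT 1B, WT 2B, Anaef 3B, Anaef 4B; every pool joined 2 samples) after a short exposure to cycloheximide, which stops elongating ribosomes. No source used here says which animals entered which RPF pool or whether they also gave total RNA, so the p-values measure the spread between these libraries only.

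Polyamines are small positively charged molecules (putrescine, spermidine and spermine) that bind RNA and are needed for cell growth, and resting T cells are known to raise their synthesis when they are activated. Ornithine decarboxylase, from Odc1, makes putrescine, S-adenosylmethionine decarboxylase, from Amd1, supplies the aminopropyl group, spermidine synthase (Srm) and spermine synthase (Sms) add that group, and the acetyltransferase Sat1 marks spermidine and spermine for export or breakdown. The pathway is limited by antizyme, from Oaz1 and Oaz2, which binds ornithine decarboxylase and takes it to the proteasome, whereas the antizyme inhibitor Azin1, an inactive relative of the decarboxylase, binds antizyme in its place. Several of these steps are known to be set during translation: ribosomes must slip forward by 1 base to make antizyme, and upstream frames in the leaders of the Amd1 and Azin1 mRNAs respond to polyamine levels.

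On GRCm38, the synthesis genes Odc1 (ENSMUSG00000011179), Amd1 (ENSMUSG00000075232), Srm (ENSMUSG00000006442) and Sms (ENSMUSG00000071708) lie at chr12:17544794-17551505, chr10:40287458-40302186, chr4:148591503-148594993 and chrX:157443855-157492287. The antizymes Oaz1 (ENSMUSG00000035242) and Oaz2 (ENSMUSG00000040652) lie at chr10:80826656-80829290 and chr9:65668001-65690300, Azin1 (ENSMUSG00000037458) at chr15:38487427-38519266 and Sat1 (ENSMUSG00000025283) at chrX:155213132-155216449. Odc1, Srm, Oaz1 and Oaz2 are on the + strand and the others on the - strand.

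The sequences behind those known translational steps are shown first, because the comparison of RPF with RNA below concerns the mRNAs that carry them. The deposited counts are per gene and hold no read positions. Footprints in an upstream frame, or on either side of a frameshift, therefore cannot be told apart from the others of that gene. The part that these sequences played in the ratios below was not tested. All were read from the GENCODE M21 transcripts on the GRCm38 build, on the strand of the transcript and from 5′ to 3′. In both antizyme mRNAs the first reading frame ended at a stop codon that follows a TCC codon (both in capitals), and the annotated coding sequence left out 1 base there, at position 80828295 in Oaz1 and 65686272 in Oaz2, which joins the first frame to the next. Both sites lie in coding exon sequence. The first frame was 66 codons long in an annotated Oaz1 transcript and 32 in an annotated Oaz2 transcript. Those transcripts are not the ones that gave the letters below or the leader and transcript lengths.
Oaz1 frameshift site, chr10:80828280-80828312, + strand: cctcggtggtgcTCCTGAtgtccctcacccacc
Oaz2 frameshift site, chr9:65686257-65686289, + strand: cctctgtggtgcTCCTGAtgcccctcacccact
The Amd1 leader held 1 upstream frame, of 6 codons, shown with its start and stop codons in capitals. The copy Amd2 carried the same letters, and no other of 20540 coding genes with an annotated leader did.
Amd1 upstream frame, chr10:40302155-40302175, - strand: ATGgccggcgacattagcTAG
The leaders were also searched, on the transcript strand only, for CCNCCNTGG, the letters that encode proline, proline and tryptophan in 1 of the 3 frames, a run at which ribosomes are known to pause in the upstream frame of Azin1. Azin1 held 2 matches and Odc1 1 (capitals), the other 6 genes none, and 3.12% of all coding leaders, which differ in length, held at least 1. A match is a description of the letters and not a site of pausing.
Azin1 leader, chr15:38518991-38519017, - strand: tggcccaggCCGCCTTGGgtatttctg
Azin1 leader, chr15:38514508-38514534, - strand: aacgctgagCCACCTTGGgaacctagc
Odc1 leader, chr12:17545121-17545147, + strand: gcggcggcgCCTCCATGGgtcaggcca

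In the leaders as a whole, Azin1 (590 bases) and Odc1 (489 bases) had the longest of the 8, against a median of 171 bases over all coding genes. Azin1 held 3 upstream ATG triplets, Odc1 2, Sms 4, Sat1 2 and Amd1 1, while Oaz1 (74 bases), Oaz2 (198 bases) and Srm (117 bases) held none. An upstream ATG was common, since 54.4% of all coding leaders had at least 1.

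Total counts ran from 15326842 to 40046317 in the total RNA libraries and from 2868943 to 7009342 in the RPF libraries. Levels are given as CPM, the count as a share of the library after scaling by the trimmed mean of M values (TMM) within each assay unless stated otherwise, so a CPM of 1 assay cannot be set against a CPM of the other. All 8 CD4+ T cell markers (Cd4, Cd3e, Lck and others) were detected in every group, with a summed level of 2791 to 4857 CPM in total RNA. All 6 plasma cell markers were detected too, and their sum in total RNA was 336 to 541 CPM for WT and 119 to 201 CPM for Anaef. Of these, Igha, Jchain and Mzb1 did not overlap between the genotypes in total RNA, while Xbp1, Prdm1 and Sdc1 did. In RPF the plasma cell markers summed to 7506 to 8675 CPM in WT and 1297 to 3929 CPM in Anaef, and B cell markers to 47.4 to 88.0 CPM and 21.5 to 37.7 CPM. In total RNA the B cell sums overlapped, at 30.5 to 63.8 CPM in WT and 11.2 to 31.8 CPM in Anaef. Myeloid and dendritic cell markers summed to 19.5 to 24.4 CPM in WT and 12.3 to 16.1 CPM in Anaef total RNA, and their sums overlapped in RPF. In bulk samples like these, fewer cells of a type and less RNA per cell cannot be told apart. The part that these other cells played in any difference between genotypes or between assays below was not tested. The total RNA libraries WT 3, Anaef 6 and Anaef 8 held the most mitochondrial counts (27.85%, 25.01% and 23.66%, against 16.4% to 19.6% in the other 5). Rasgrp1 itself, whose mutated base cannot be seen in counts, had 503 ± 72.1 CPM in the WT and 582 ± 92.9 CPM in the Anaef libraries of total RNA (SD, n = 4 each), and 161 ± 16.4 and 114 ± 13.6 CPM in RPF (SD, n = 2 each). Neither difference was called by edgeR's quasi-likelihood test with Benjamini-Hochberg adjustment (adjusted p = 0.945 and 0.363).

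The mRNA of the antizyme Oaz1 had the highest mean level per length of the 8 in both assays and both genotypes. To compare genes, CPM was divided by length in kilobases, using the annotated principal transcript for total RNA and its coding part for RPF. In WT total RNA, Oaz1 reached 100.4 ± 18.3 CPM per kb and Sat1 45.4 ± 6.80 CPM per kb (SD, n = 4), and both stood apart from the rest. Odc1 followed at 13.9 ± 2.72 CPM per kb, then Srm at 10.3 ± 2.67, Amd1 at 8.10 ± 1.75, Sms at 7.71 ± 1.49, Oaz2 at 6.26 ± 3.14 and Azin1 at 3.89 ± 1.64. From Odc1 downwards, the gap between neighbours was smaller than their SDs added together. In Anaef total RNA Oaz1 (80.8 ± 27.3 CPM per kb) and Sat1 (69.1 ± 15.7, SD, n = 4) lay within their summed SDs, and the library Anaef 6 had fewer Oaz1 than Sat1 counts.

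In WT RPF the order of the lower genes was different. Oaz1 was again highest, at 323 ± 66.5 CPM per kb of coding sequence (SD, n = 2), and Sat1 next, at 73.0 ± 11.5. Srm came to 26.2 ± 1.16, Sms to 21.2 ± 4.04 and Amd1 to 19.4 ± 2.77 CPM per kb, and among these 3 the gap between neighbours was smaller than their summed SDs. Oaz2 was at 15.2 ± 0.892, Odc1 at 7.42 ± 1.43 and Azin1 at 1.92 ± 1.18 CPM per kb. Odc1 thus stood in the third place of 8 by total RNA and in the seventh by RPF. In Anaef, Odc1 was at 19.8 CPM per kb in total RNA, again the third, and at 5.63 in RPF, again the seventh, with Azin1 lowest in both assays (3.92 and 2.13 CPM per kb).

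**Figure D1:**
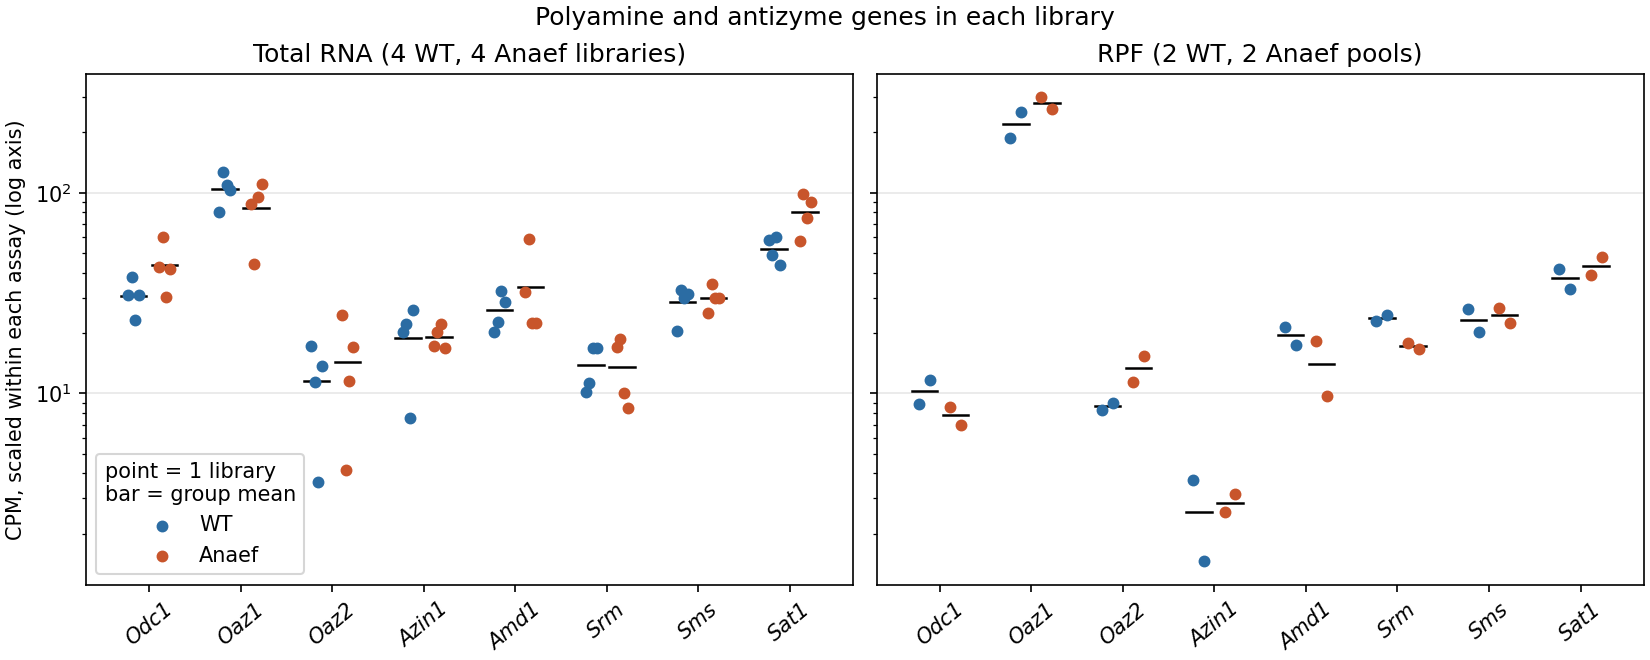
Levels of the 8 genes in CPM, scaled within each assay (log axis), in the 4 WT and 4 Anaef total RNA libraries (left) and the 2 WT and 2 Anaef RPF pools (right), with 1 point per library and a bar at the group mean. Oaz1 is highest in the RPF panel, at 188 to 298 CPM, and Azin1 lowest there, at 1.46 to 3.69 CPM.

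The next question was how many ribosome footprints each mRNA carried for its RNA level. This was answered with a fit of RPF against total RNA within each genotype, in which a log2 ratio of 0 means equal shares of the scaled libraries. Ratios were mostly negative over all genes, and rows that are not protein-coding had almost no RPF counts (0 in 97.6% of 5236 such genes with more than 100 RNA counts, against 6.75% of 11681 coding genes). The median ratio was -1.62 over all genes tested in WT and -0.36 over nuclear coding genes, and -1.79 and -0.48 in Anaef, so the values below are best read against the coding median. The 2 assays also differed in cell input, nuclease treatment and library kit, and these cannot be told apart from translation.

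Odc1, the decarboxylase that starts the pathway, had few footprints for its RNA. On a scale set over all 12 libraries together, its total RNA was 36.2, 44.7, 28.3 and 36.1 CPM in WT 1 to 4 and 50.0, 71.6, 35.2 and 50.4 CPM in Anaef 5 to 8. Its RPF was 6.31 and 8.29 CPM in WT 1B and 2B and 6.12 and 4.89 CPM in Anaef 3B and 4B, from 20 to 60 counts a pool. Every RPF pool lay below every total RNA library. The log2 ratio of RPF to RNA was -2.31 ± 0.28 (SE) in WT and -3.23 ± 0.38 in Anaef, and edgeR called both (adjusted p = 0.000181 and 0.000158, n = 2 and 4). With RPF taken per base of coding sequence and RNA per base of transcript, Odc1 was at percentile 19.8 of 11881 coding genes in WT and at 14.9 of 11993 in Anaef.

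Azin1, the antizyme inhibitor, was the other gene with a low ratio. Its RPF counts were 25 and 6 in the WT pools and 9 and 9 in the Anaef pools, equal to 2.63, 1.04, 1.83 and 2.20 CPM on the common scale. Its total RNA ran from 9.16 CPM in WT 3 to 30.5 CPM in WT 4 and from 20.2 to 25.9 CPM in Anaef, so the assays did not overlap. The log2 ratio was -3.53 ± 0.63 in WT and -3.49 ± 0.38 in Anaef (edgeR, adjusted p = 0.00142 and 0.000107). Without WT pool 1B the WT ratio was -4.41, and without 2B -3.08, still called. Only 27.6% of the long Azin1 transcript is coding, against 62.6% for Odc1, and per base Azin1 stood at percentile 19.5 in WT and 20.4 in Anaef, close to Odc1.

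Oaz1, the main antizyme, lay on the other side of the coding median. Its total RNA was 94.2, 149, 134 and 121 CPM in WT and 103, 52.6, 112 and 133 CPM in Anaef on the common scale, with Anaef 6 the lowest. Its RPF was 134 and 179 CPM in WT and 212 and 182 CPM in Anaef. In WT the assays overlapped and the log2 ratio of 0.35 ± 0.22 was not called (edgeR, adjusted p = 0.176, 95% interval -0.15 to 0.85). In Anaef all RPF values were higher and the ratio of 0.98 ± 0.32 was called (adjusted p = 0.0269), but it missed the threshold without RPF pool 4B (0.0884) or 3B (0.16), without total RNA library 5 (0.0503), and with limma-voom (0.0765). Per base it was at percentile 55.6 of coding genes in WT and 69.0 in Anaef, and by counts at 63.7 and 75.7. With the merged length of all exons in place of 1 transcript it was at 69.6 and 80.7.

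Oaz2, a less abundant antizyme, varied most of the 8 in total RNA, from 4.43 CPM in WT 3 to 20.3 CPM in WT 1 and from 4.97 CPM in Anaef 6 to 29.0 CPM in Anaef 5 on the common scale. Its RPF was steadier, at 5.89 and 6.39 CPM in WT and 8.15 and 10.8 CPM in Anaef. The log2 ratio was -1.14 ± 0.56 in WT and -0.85 ± 0.65 in Anaef, and neither was called (edgeR, adjusted p = 0.0989 and 0.268). Leaving out WT 3 gave a called ratio of -1.425 (adjusted p = 0.00171), and leaving out Anaef 6 gave -1.17 (adjusted p = 0.0373).

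Of the enzymes that follow ornithine decarboxylase, Srm had the highest ratio of counts, whereas per base Sms was above Srm in both genotypes. The log2 ratio of Srm was 0.07 ± 0.29 in WT and -0.40 ± 0.42 in Anaef, and neither was called (edgeR, adjusted p = 0.833 and 0.412). Per base Srm was at percentiles 48.8 and 42.2 of coding genes. Amd1 (-1.13 ± 0.28 in WT, -2.01 ± 0.52 in Anaef) and Sms (-1.01 ± 0.27 and -1.04 ± 0.27) were called lower in both genotypes, with adjusted p of 0.00676, 0.00955, 0.0099 and 0.00991. The coding part makes up 31.3% and 29.5% of the Amd1 and Sms transcripts, and per base both stood near the middle of the coding genes in WT, at percentiles 47.2 and 51.2, and at 34.4 and 52.7 in Anaef. Amd1 and Sms lost their calls without WT pool 2B (adjusted p = 0.0623 and 0.0846) and without Anaef pool 4B (0.0948 and 0.091), and Amd1 in Anaef also with limma-voom (0.0638).

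Sat1, the acetyltransferase, was called lower at -1.21 ± 0.23 in WT and -1.65 ± 0.28 in Anaef (edgeR, adjusted p = 0.0019 and 0.00107). Per base it was at percentiles 37.2 and 32.6. With the merged length of all exons in place of 1 transcript it was at 48.8 and 43.1. In all, 5 of the 8 genes were called lower in WT and none higher, where 74% of all genes tested were called, 54.4% lower and 19.6% higher. In Anaef 5 were called lower and 1 higher, where 67.1% of all genes tested were called, 50.8% lower and 16.4% higher. Among nuclear coding genes alone the share called lower was 39.3% in WT and 36.2% in Anaef, so the counts by themselves do not set the 8 genes apart.

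**Figure D2:**
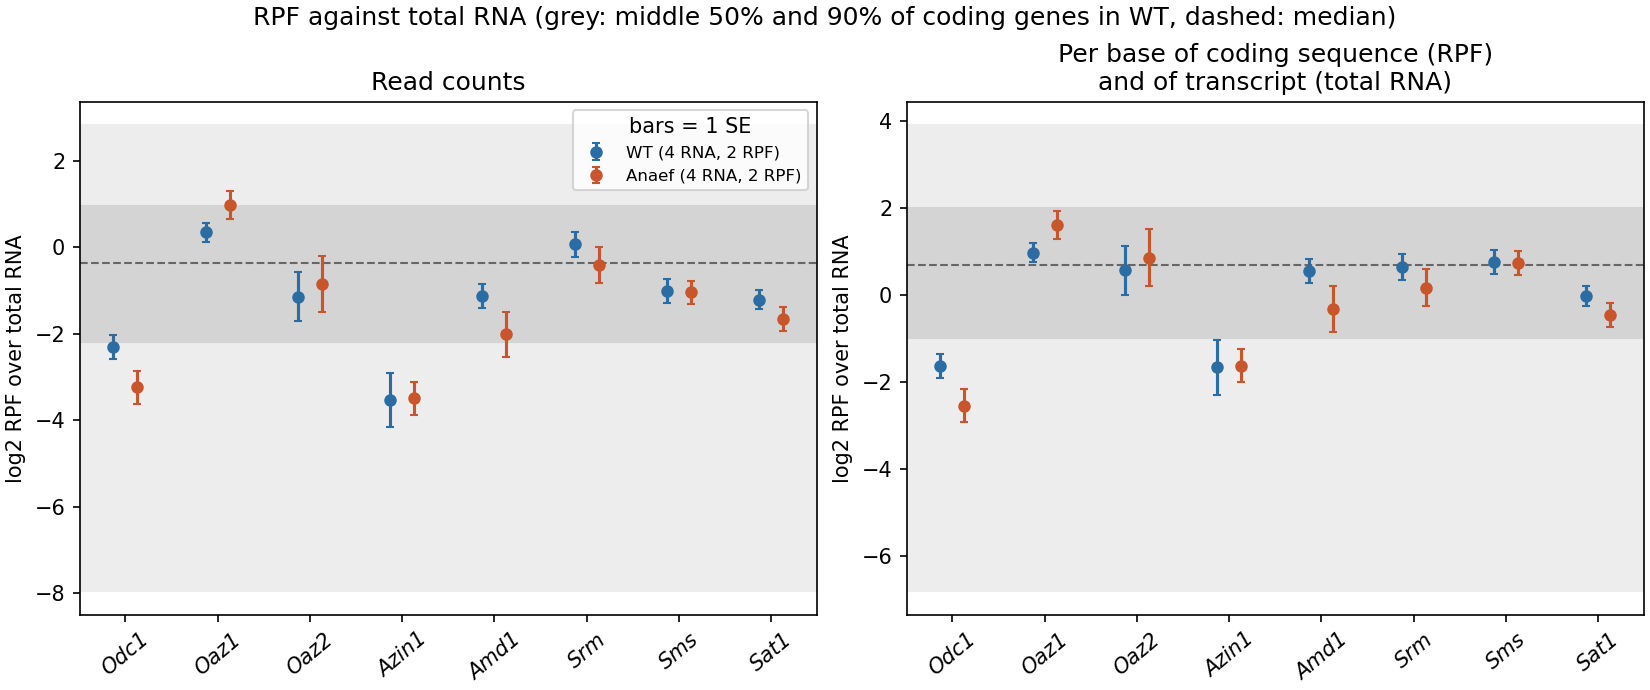
Log2 ratio of RPF to total RNA for each gene in WT and Anaef (points, bars of 1 SE, 4 RNA and 2 RPF libraries each), from read counts (left) and per base of coding sequence and of transcript (right). Grey bands hold the middle 50% and 90% of coding genes in WT and the dashed line is their median: Odc1 and Azin1 lie below the inner band on the right, at -1.63 and -1.67 in WT.

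Ratios between 2 of the genes within 1 library need no scaling. They come from the same counts as the fits above, so their order is not a separate result. In total RNA there were 2.60, 3.33, 4.72 and 3.36 Oaz1 counts for each Odc1 count in WT 1 to 4, and the Anaef libraries 5 to 8 had 2.06, 0.734, 3.17 and 2.64. In RPF there were 21.2 and 21.6 in the WT pools, and 34.7 and 37.3 in the Anaef pools. Every RPF pool was above every total RNA library, by 6.26-fold in WT and 19.1-fold in Anaef on the geometric mean, and the Anaef value includes Anaef 6, whose ratio was the lowest. The coding part takes up similar shares of both transcripts (65.2% for Oaz1, 62.6% for Odc1).

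The ratio of Srm to Odc1, both enzymes of synthesis with similar coding shares (67.7% for Srm), moved the same way. It ran from 0.297 to 0.725 in WT and from 0.202 to 0.403 in Anaef total RNA, and from 2.10 to 2.60 and from 2.07 to 2.40 in RPF. Oaz1 over Azin1 ran from 3.97 to 14.6 in WT and 2.18 to 6.60 in Anaef total RNA, and was 50.9 and 173 in WT RPF and 116 and 82.9 in Anaef RPF. The ratio of Azin1 to Odc1 overlapped between assays, from 0.323 to 0.845 in total RNA and from 0.125 to 0.450 in RPF. The genotype difference in these ratios was not tested.

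**Figure D3:**
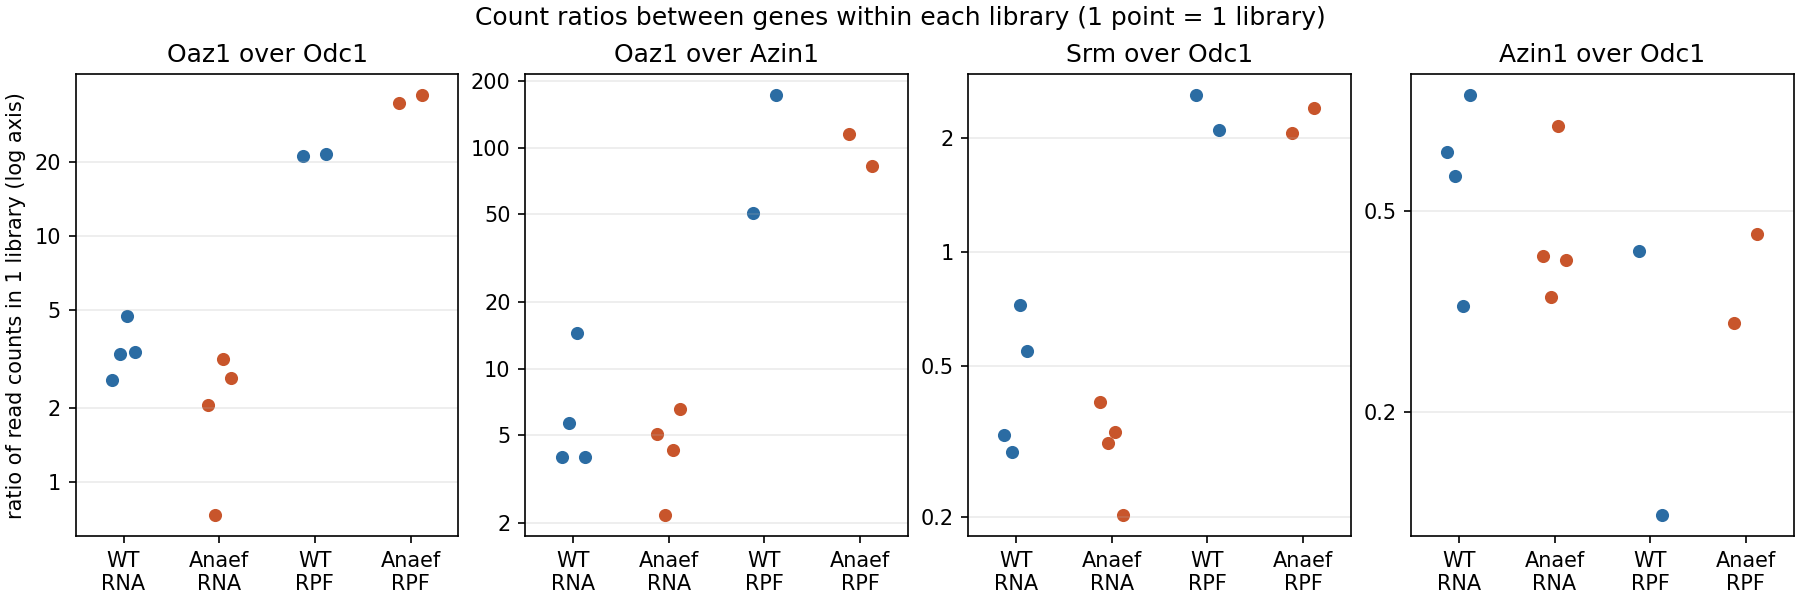
Ratios of read counts between pairs of the genes inside each library (log axes, 1 point per library, WT in blue and Anaef in orange). Oaz1 over Odc1 lies between 0.734 and 4.72 in total RNA and between 21.2 and 37.3 in RPF, while Azin1 over Odc1 overlaps between the assays.

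Most of these genes have near-identical copies elsewhere in the genome, and no source used here says how reads that fit several places were counted. Of all 30-base words in the coding part, 100% of those of Amd1 and Sms, 91.0% of those of Oaz1, 83.01% of those of Odc1, 63.6% of those of Oaz2, 42.6% of those of Sat1 and 18.1% of those of Srm also occur in another annotated gene, and none of those of Azin1. Counts of Amd2 were 81.4% to 85.6% of those of Amd1 in total RNA and 88.9% to 98.6% in RPF, so the 2 genes, both on chromosome 10, cannot be told apart and the Amd1 values are uncertain. The pseudogene Oaz1-ps had 19.8% to 47.1% of the Oaz1 count in total RNA, lowest in Anaef 6, and Sms-ps had 44.8% to 59.5% of that of Sms, while both had 0 counts in RPF. Gm7993, Gm17709 and Gm9115, the leading genes by words shared with Odc1, had 577, 598 and 485 counts over the WT total RNA libraries. Odc1 itself had 3961 there. In Anaef total RNA these copies had 727, 759 and 530 counts, against 5331 for Odc1. Gm7993, Gm17709 and Gm9115 also had 0 counts in RPF. The low RPF values of Odc1 and Azin1 sit beside a high share of shared words for Odc1 and none for Azin1. Amd1 and Sms, at 100%, had 28 to 145 and 64 to 179 counts in an RPF pool. Of all 50-base words in the whole transcript, 42.2% of those of Odc1 and 53.9% of those of Oaz1 were shared, so the shares differ between the assays. The effect of reads that fit several places on the Odc1 and Oaz1 values, and on the ratio between those 2 genes, was not tested.

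The comparison of genotypes asked whether the Anaef allele changed these levels. No gene of the 8 was called in total RNA by edgeR's quasi-likelihood test (0.0224% of 17876 genes were called, all lower in Anaef), and 1, Sat1, had an unadjusted p below 0.05, as did 1004 genes in all. None of the 8 genes had groups that did not overlap, against 3.59% of genes tested (1.58% higher and 2.01% lower in Anaef). DESeq2 and limma-voom also called none of the 8.

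Sat1 showed the largest difference in total RNA among the 8, at 57.9, 48.8, 60.5 and 43.5 CPM in WT and 57.6, 99.0, 74.7 and 90.1 CPM in Anaef. Only Anaef 5 lay within the WT range. The log2 fold change was 0.61 ± 0.20 (SE, 95% interval 0.17 to 1.04, unadjusted p = 0.0107), with an adjusted p of 0.778 from edgeR. In RPF, Sat1 was at 41.6 and 33.3 CPM in WT and 38.7 and 47.8 CPM in Anaef, a log2 fold change of 0.20 ± 0.21 (adjusted p = 0.739), with overlapping groups.

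Odc1 was at 30.8, 37.9, 23.3 and 30.8 CPM in WT and 42.5, 60.0, 30.1 and 41.9 CPM in Anaef total RNA. Here 3 of 4 Anaef libraries were above all WT libraries, and Anaef 7 lay within their range. The log2 fold change was 0.50 ± 0.23 (95% interval -0.01 to 1.02, edgeR adjusted p = 0.887). In RPF the values were 8.86 and 11.7 CPM in WT and 8.60 and 6.98 CPM in Anaef, lower in both Anaef pools, with a log2 fold change of -0.37 ± 0.32 (95% interval -1.15 to 0.40, adjusted p = 0.689).

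Both antizyme genes had RPF differences of the opposite sign to that of Odc1, and none of these passed the test. Oaz1 was at 188 and 252 CPM in WT and 298 and 260.3 CPM in Anaef RPF, higher in both Anaef pools, with a log2 fold change of 0.35 ± 0.18 (95% interval -0.09 to 0.78, edgeR adjusted p = 0.495). In total RNA Oaz1 was at 80.0, 126, 110 and 104 CPM in WT and 87.4, 44.1, 95.4 and 111 CPM in Anaef, and the log2 fold change of -0.31 ± 0.26 (adjusted p = 0.95) came to -0.10 without Anaef 6. Oaz2 was at 8.27 and 8.98 CPM in WT and 11.5 and 15.4 CPM in Anaef RPF, a log2 fold change of 0.63 ± 0.29 (95% interval -0.07 to 1.34, adjusted p = 0.45). Azin1 was at 0.01 ± 0.33 in total RNA and 0.07 ± 0.57 in RPF, where its interval of -1.29 to 1.43 rests on 6 to 25 counts a pool. Its RPF value was 0.94 without WT pool 1B and -0.37 without 2B.

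Among the other synthesis enzymes, Srm was lower in both Anaef RPF pools, at 17.8 and 16.7 CPM against 23.0 and 24.5 CPM in WT, a log2 fold change of -0.46 ± 0.21 (95% interval -0.95 to 0.04, edgeR adjusted p = 0.443). In total RNA Srm was at 10.2, 11.3, 16.8 and 16.9 CPM in WT and 17.1, 18.8, 10.1 and 8.47 CPM in Anaef, with a log2 fold change of -0.02 ± 0.32. Amd1 in total RNA was at 20.1, 22.6, 32.4 and 28.6 CPM in WT and 32.1, 58.5, 22.3 and 22.5 CPM in Anaef, and its log2 fold change of 0.39 ± 0.32 turned to -0.02 without Anaef 6. In RPF, Amd1 was at 21.4 and 17.5 CPM in WT and 18.4 and 9.77 CPM in Anaef, a log2 fold change of -0.46 ± 0.33 (adjusted p = 0.621), and the groups overlapped. Sms was at 0.07 ± 0.20 in total RNA (95% interval -0.38 to 0.51) and 0.07 ± 0.23 in RPF (-0.48 to 0.61). The library Anaef 6 had the highest total RNA value of all 8 libraries for Odc1, Amd1, Srm, Sms and Sat1 and the lowest for Oaz1, and it is 1 of the 3 libraries with the most mitochondrial counts.

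In RPF as a whole edgeR called none of the 8 genes and 0% of 9710 genes tested, with 0 of the 8 and 1151 genes in all at an unadjusted p below 0.05. Both Anaef pools were outside the WT range for 4 of the 8 genes (Odc1 and Srm lower, Oaz1 and Oaz2 higher), against 44.8% of genes tested (22.3% higher and 22.5% lower), which is near the same share. DESeq2 and limma-voom called none of the 8 either, though DESeq2 gave no adjusted p for Azin1.

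**Figure D4:**
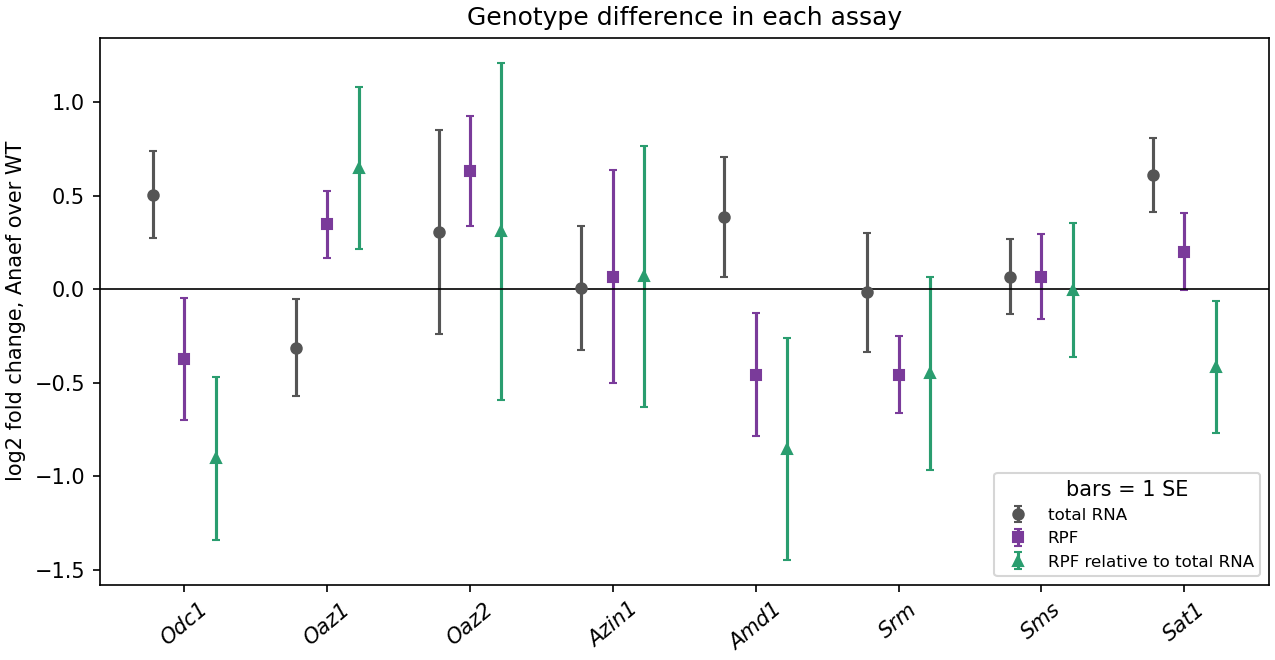
Log2 fold change of Anaef over WT for each gene in total RNA (4 against 4 libraries), in RPF (2 against 2 pools) and in RPF relative to total RNA (the interaction over 12 libraries), with bars of 1 SE. Odc1 lies at 0.50 in total RNA and -0.37 in RPF, Oaz1 at -0.31 and 0.35, and no value passed the adjusted threshold.

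Whether the genotypes differed in RPF relative to RNA was tested as an interaction term over all 12 libraries. Odc1 had the value farthest from 0, at -0.90 ± 0.44 (SE, 95% interval -1.85 to 0.04, unadjusted p = 0.0594, edgeR adjusted p = 1). Amd1 was at -0.86 ± 0.59, Oaz1 at 0.65 ± 0.43 (95% interval -0.29 to 1.59), Srm at -0.45 ± 0.51 and Sat1 at -0.42 ± 0.35. Oaz2 (0.31 ± 0.90), Azin1 (0.07 ± 0.70) and Sms (-0.01 ± 0.36) had the wider or smaller values. None of the 8 was called by edgeR, DESeq2 (which gave no adjusted p for Oaz2) or limma-voom, no gene of 19031 was by edgeR (0%), and 0 of the 8 and 636 in all had an unadjusted p below 0.05. The interval for Odc1 reaches down to -1.85, so a p above the threshold does not show that the genotypes were alike.

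The wider pathway was read from 40 genes in 7 lists: ornithine supply, the methionine cycle and salvage, catabolism, transport, hypusine formation, the rest of the antizyme family, and the Myc network, whose factors are known to bind Odc1. In the genotype comparisons edgeR called 0 of 35 tested in total RNA, 0 of 26 in RPF and 0 of 35 in the interaction, and the median log2 fold changes were 0.01, -0.02 and 0.04, against 0.01 for each over all genes tested. For RPF against RNA, 12 of 34 were called higher and 16 lower in WT (19.6% and 54.4% of all genes tested, 26.4% and 39.3% of coding genes), with a median of -0.34. In Anaef 8 of 35 were called higher and 15 lower (16.4% and 50.8% of all genes tested, 21.6% and 36.2% of coding genes), with a median of -0.16. The counts of single lists below are to be read against these shares. All ratios of these genes are of read counts and not per base. The part that the coding share of each transcript played in them was not tested. The genes named below are those of each list with the most total RNA counts.

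Among suppliers of ornithine 1 gene of 4 tested was called higher and 3 lower in WT, and 1 of 5 higher and 3 lower in Anaef. Oat, the mitochondrial aminotransferase, had a log2 ratio of RPF to RNA of 3.63 ± 0.47 in WT and 2.92 ± 0.31 in Anaef (edgeR, adjusted p = 0.000273 and 8.87e-05). Slc7a1, a carrier of arginine and ornithine, was lower at -0.60 ± 0.21 and -1.58 ± 0.37 (adjusted p = 0.0314 and 0.00561). Slc7a2, another carrier of cationic amino acids, was also called lower in both genotypes (adjusted p = 0.00042 and 0.00895), with 27 to 107 counts in total RNA and at most 1 count in an RPF pool, which gives no usable fold. In the methionine cycle, which feeds Amd1, 5 of 8 genes were called higher and 2 lower in WT (19.6% and 54.4% of all genes tested), and in Anaef 2 were called higher, 2 lower and 4 not. The 2 lower were Mat2a, which makes S-adenosylmethionine (-0.95 ± 0.17 in WT, -0.84 ± 0.23 in Anaef), and Adi1 of the salvage branch (-1.67 ± 0.23 and -1.73 ± 0.20), while Mat2b, a regulatory subunit, was at 0.62 ± 0.15 in WT (adjusted p = 0.00721) and 0.34 ± 0.22 in Anaef (adjusted p = 0.195).

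Of the 3 genes tested for polyamine oxidation, the same 2 were called higher in WT and in Anaef (19.6% and 16.4% of all genes tested). Paox, an oxidase of acetylated polyamines, was at 2.38 ± 0.45 in WT and 2.40 ± 0.83 in Anaef (edgeR, adjusted p = 0.00195 and 0.0314), and Aldh9a1, an aldehyde dehydrogenase, at 1.27 ± 0.17 and 1.08 ± 0.22. Smox, spermine oxidase, was at -0.09 ± 0.57 and 0.36 ± 0.85 and was not called. Of the 6 transport genes tested, 1 was called higher and 3 lower in WT, and 1 higher and 3 lower in Anaef. Slc3a2, the heavy chain of amino acid exchangers, was higher at 2.00 ± 0.21 and 2.24 ± 0.39. Atp13a3, a polyamine transporter, was lower at -1.07 ± 0.17 and -1.38 ± 0.25. Slc7a5, a light chain that pairs with Slc3a2, was not called at 0.60 ± 0.28 and 0.35 ± 0.27. The others called lower, Slc18b1 and Slc12a8, had at most 3 counts in an RPF pool. Of the 4 hypusine genes tested, 1 was called higher and 1 lower in WT, and 1 higher and 0 lower in Anaef. Eif5a, the translation factor that carries hypusine made from spermidine, was at 0.23 ± 0.15 and 0.36 ± 0.20. Dhps, which starts that modification, was at -0.65 ± 0.39 and -0.16 ± 0.46, and neither gene was called in either genotype. Eif5a2 was called lower in WT, at -3.46 ± 0.64 (edgeR, adjusted p = 0.00178). In Anaef Eif5a2 was at -1.78 ± 0.76 and not called (adjusted p = 0.0654), with 2 to 5 counts in an RPF pool.

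In the Myc network 6 of 8 tested genes were called lower and 2 higher in WT, and 6 lower and 1 higher in Anaef (54.4% and 19.6%, and 50.8% and 16.4%, of all genes tested). Myc itself was higher at 0.65 ± 0.20 in WT (edgeR, adjusted p = 0.0173) and at 0.09 ± 0.26 in Anaef (adjusted p = 0.773). Its partner Max (-3.11 ± 0.17 and -3.63 ± 0.28) and the Max-binding repressor Mxd4 (-3.29 ± 0.27 and -3.32 ± 0.23) were lower in both. The remaining antizyme, Oaz3, known from the testis, had 151 to 527 counts in total RNA and 0 in all 4 RPF pools, where 3 counts would be 0.428 to 1.05 CPM. Oaz3 lies across Tdrkh and Mrpl9 on the opposite strand, and without strand in the counting its RNA counts cannot be told apart from theirs.

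The genes whose levels moved most like those of 3 members over all 12 libraries were found among 7175 genes with a mean of at least 10 CPM, by the root mean square difference of log2 CPM after each gene's mean was removed. Traf6 (0.218), Atxn7l1 (0.218) and Tdrp (0.22) were nearest to Odc1, Pias4 (0.234), Cep152 (0.256) and Actg1 (0.259) to Oaz1, and Osbpl9 (0.342), Tfdp2 (0.343) and Amz2 (0.347) to Azin1. The 12 points fall into 2 assays and 2 genotypes, which all these genes share.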

How the data were processed

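The authors deposited 1 table of read counts per gene for 12 libraries, on GRCm38, with TopHat 1.4.1 named in the submitters' processing notes. The RPF columns are marked as masked per the file headers, and no source used here says what was masked, which tool counted the reads, whether it used strand, or how reads with several matches were treated. Identifiers were matched to GENCODE M21 (44509 of 45669 rows, where 263 rows join several identifiers). The members and lists were chosen with earlier results of these data known. The counts went into edgeR 4.0.16 under R 4.3.3 (TMM scaling, filterByExpr, glmQLFit and glmQLFTest, Benjamini-Hochberg over all genes tested, threshold 0.05), with SE as the log2 fold change over the root of F and 95% intervals from its degrees of freedom. The 8 members and Rasgrp1 are always named, and of each pathway list up to 3 genes with the most total RNA counts. Alternatives were RLE size factors, no filter, a mean of at least 50 counts, DESeq2 1.42.0, limma 3.58.1 with voom, nuclear protein-coding genes only, 1 fit over 12 libraries, and leaving out each library. The tests were tried first on simulated counts, whose spread between libraries was set below that of these data. That trial therefore does not measure their power or false calls here. The RPF values rest on 6 to 1273 counts per gene and pool. Sequences and leader features came from GENCODE M21, and protein sequences were not used here.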

Additional observations from a re-analysis of the deposited data

How the results depend on the processing

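The count of the 8 genes called stayed at 0 under every alternative run for the 3 genotype comparisons, but a mean of at least 50 counts left out Odc1, Oaz2 and Azin1 in RPF, and DESeq2 gave no adjusted p for Azin1 in RPF and Oaz2 in the interaction. For RPF against RNA it was 5 in WT (3 to 6 when 1 library was left out, 3 without WT pool 2B) and 6 in Anaef (3 to 7, 3 without Anaef pool 4B, and 4 with limma-voom). Some log2 values changed sign: Azin1 in total RNA was -0.003256 with a mean of at least 50 counts and -0.002443 with nuclear coding genes only, and the Sms interaction was 0.03489 with RLE, 0.02096 with a mean of at least 50 counts and 0.03026 with DESeq2. Leaving out 1 library gave, in total RNA, -0.07308 to 0.61 for Oaz2, -0.25 to 0.19 for Azin1, -0.01506 to 0.54 for Amd1, -0.21 to 0.15 for Srm and -0.06582 to 0.14 for Sms. It gave -0.37 to 0.94 for Azin1 and -0.11 to 0.27 for Sms in RPF. For the interaction it gave -0.01135 to 0.69 for Oaz2, -0.41 to 0.92 for Azin1 and -0.20 to 0.18 for Sms, and for the WT ratio -0.05396 to 0.19 for Srm. The Odc1 interaction kept its sign, from -1.12 to -0.71. The cause was not tested. Over all genes, calls in total RNA went from 4 to 120 with DESeq2, 2 with limma-voom, 0 with coding genes only and 0 to 3 without 1 library. In RPF they went from 0 to 514 with no filter, 197 with DESeq2, 6 with coding genes only, 211 without Anaef pool 3B, 14 without 4B and 1 without WT pool 2B. The interaction had 10 with DESeq2 and 1 without WT library 1, and the Anaef ratio 7909 with limma-voom, 6717 with coding genes only, against 12106, and the WT ratio 7740 with coding genes only against 13157. A fit that leaves 1 pool in a group assumes that it varies like the others. No paired analysis was possible because the total RNA libraries of the 2 genotypes carry different numbers and the RPF numbers name pools that the labels do not tie to them. The 2 pools a genotype and 20 to 60 Odc1 counts limit the RPF values.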
